A study of Mus musculus with 2 samples.

Results

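Border-associated macrophages are the resident macrophages of the brain's outer and vascular surfaces, and 10 of their genes (Mrc1, Cd163, Pf4, Lyve1, Cbr2, F13a1, Ms4a7, Clec12a, Folr2 and Dab2) were followed in microglia sorted from the brain after sham surgery. The genes were chosen by name, with no measured value in the rule but with earlier results of these data known. All 10 were found among the 53801 genes of each count file. The series as analysed here has 1 group of 2 libraries, sham library 1 and sham library 2, each from 1 male mouse by the design text, on a C57BL/6 background with the genotype Cx3cr1(CreER/wt), in which one Cx3cr1 allele carries the inducible Cre recombinase CreER. The labels call this genotype WT. Macrophages at the brain's borders also use Cx3cr1, so the allele does not separate them from microglia. The mice were 8 to 10 weeks old per the series' design text (the study's methods give an older range and both sexes) and received tamoxifen at 75 mg/kg/day for 4 days, begun 14 days before surgery. Cells were taken from the left hemisphere 3 days after sham surgery and gated as CD11c–Ly6G–CD11b+CD45low. The libraries of the stroke arm were not analysed here. With 1 group there is no test between conditions, so each gene is described in each library, and the difference between the libraries is a difference between 2 mice with counting error as its only interval.

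Perivascular, meningeal and choroid plexus macrophages share their CD11b and Cx3cr1 expression with microglia, but sit at the vessels, membranes and ventricles where they take up proteins, pathogens and debris from fluid. Many of the genes that mark them encode endocytic and scavenger receptors, and the cells usually carry more CD45 on the surface than microglia do. In a bulk library, fewer cells of a type and less RNA per cell cannot be told apart, and the genes below are markers that other myeloid cells can also express.

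Library 1 held 23381026 counts on genes and library 2 held 41142609, and 13445 genes had at least 10 counts in both. A gene with no counts could still lie at up to 0.128 CPM (counts scaled to a total of 1000000 counts on genes) in library 1 and 0.0729 CPM in library 2, where 3 counts are taken as the limit. Both libraries carried the genes of the sorted cells. Tmem119, a microglia marker, had 7057 and 6229 CPM, Itgam, which encodes CD11b, had 289.9 and 130.9 CPM, and Ptprc, which encodes CD45, had 418 and 381 CPM. Itgam was thus over 2-fold lower in library 2 (ratio 0.452). So was Sall1 (ratio 0.434), 1 of the 12 microglia genes used below. Library 2 stood apart in genes of other cells. Its summed level of 14 neutrophil genes was 62244 CPM against 4612 CPM in library 1, and that of 8 choroid plexus epithelial genes was 586 against 45.1 CPM.

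All 10 border macrophage genes were above 10 counts in both libraries. Summed, they reached 889.7 CPM in library 1, with a 95% Wilson interval of 878 to 902. The sum was 526 CPM in library 2, with an interval of 519 to 533. The mean was 708 ± 257 CPM (SD, n = 2 libraries). The level in library 2 was 0.592 times that in library 1 (95% exact interval 0.580 to 0.603). These intervals, and those that follow, hold the error of counting alone and not the variation between mice. They treat each read as independent, and may be too narrow, since reads copied by PCR do not each stand for a molecule. Set against 12 microglia genes of the same library, which had 44034 and 51869 CPM, the 10 genes gave 2.02 counts per 100 microglia gene counts in library 1 and 1.01 in library 2. With each count divided by the length of the gene's longest transcript, the values were 2.08 and 1.25 per 100. The sum hid members that went different ways. On the CPM scale, 4 of the 10 were over 2-fold lower in library 2 (Mrc1, Cd163, F13a1 and Dab2) where 25.9% of the 13439 genes counted in both libraries with an annotated length were, and 1 of the 10 (Clec12a) was over 2-fold higher, where 5.74% were. The other 5 differed by less than 2-fold.

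**Figure D1:**
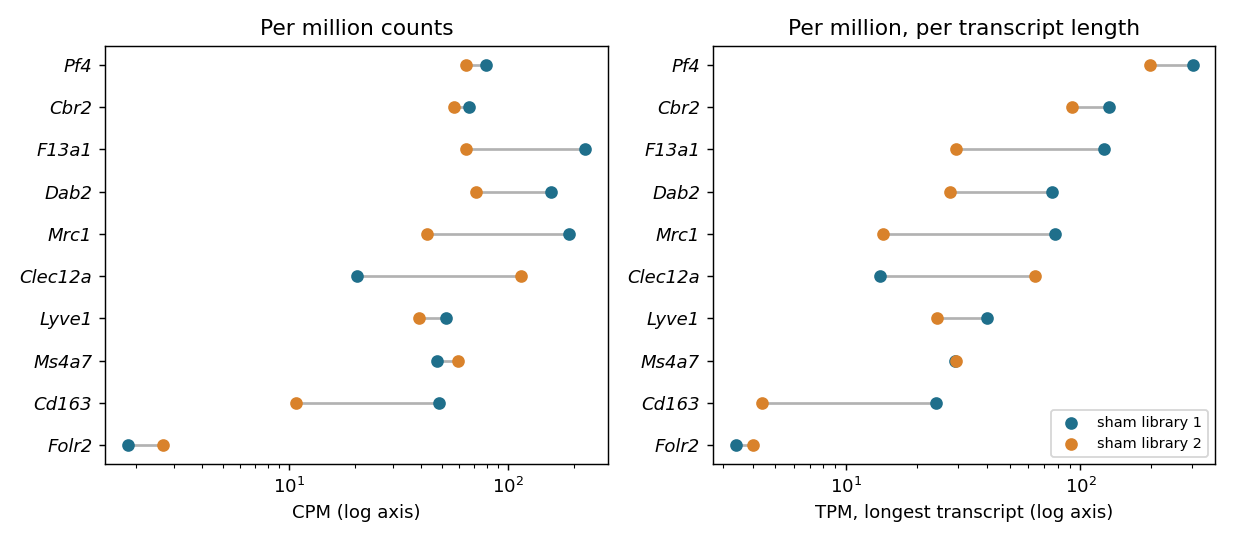
Level of each of the 10 border macrophage genes in sham library 1 and sham library 2 (1 point per library, 1 mouse each), as CPM on the left and as TPM (the same scaling after division by the length of the longest annotated transcript) on the right, both on log axes, with genes ordered by mean TPM. Pf4 lies highest and Folr2 lowest per length in both libraries, and the longest lines belong to Cd163, Clec12a, Mrc1 and F13a1.

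Expressed per length, as TPM from the longest transcript of each gene, the order was headed by the same pair in both libraries. Pf4, a chemokine best known from platelets, had 301 TPM in library 1 and 198 TPM in library 2 (249 ± 72.5, SD, n = 2). Cbr2, a carbonyl reductase, had 133 and 92.4 TPM (113 ± 28.6). Among the genes counted in both libraries, Pf4 stood at percentiles 96.7 and 95.6 of TPM and Cbr2 at percentiles 91.9 and 90.1. Next by the mean came F13a1 (77.9 ± 68.4 TPM), Dab2 (51.5 ± 33.6), Mrc1 (46.2 ± 45.1), Clec12a (39.0 ± 35.4), Lyve1 (32.2 ± 10.9) and Ms4a7 (29.3 ± 0.293, all SD, n = 2). Pf4 and Cbr2 differed by more than either SD, but Cbr2 and F13a1, and each pair of neighbours after them down to Ms4a7, differed by less than the SD of the more variable gene, so 2 libraries do not settle that order. Cd163 had 14.29 ± 14.02 TPM, and Folr2 was last with 3.70 ± 0.443 TPM.

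Among the endocytic receptors of the 10 members, Mrc1 was the most abundant in library 1. It encodes the mannose receptor CD206, which binds and takes up glycoproteins with mannose ends, and lies on chromosome 2 of GRCm38 (14229392 to 14332057, forward strand). The counts of Mrc1 were 4431 in library 1 but 1755 in the deeper library 2. These are 189.5 and 42.7 CPM, a ratio of 0.225 (0.213 to 0.238), so library 2 was 4.44-fold lower. Cd163, the scavenger receptor for haptoglobin-bound haemoglobin (chromosome 6, 124304656 to 124330527, forward strand), had 1135 and 443 counts, or 48.5 and 10.8 CPM. Its ratio of 0.222 (0.198 to 0.248) overlapped that of Mrc1. Mrc1 and Cd163 stood at percentiles 5.37 and 5.15 of this ratio among the counted genes.

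The promoters of 3 members are shown here because Mrc1 and Cd163 had nearly the same ratio between the libraries while Clec12a, described further on, went the other way. PU.1, a transcription factor of all macrophages, binds sites built around GAGGAA. Promoter windows of RefSeq on GRCm38.p6, from 250 bases before a transcription start to 50 after, were at hand for 9 of the 10 members, as 13 windows. GAGGAA was found on either strand in 9 of the 13 windows, from 7 of the 9 genes, and in 28.3% of all 32851 windows. The AP-1 motif TGACTCA was found in 1 of the 13 and in 5.2% of all windows, and the short MAF motif TGCTGA in 4 of the 13 and in 19.5%. All 3 motifs were searched on both strands, and TGCTGA and TGACTCA can overlap in the letters TGA. The 250 bases before the start are printed 5′ to 3′ on the forward strand, and capitals mark GAGGAA or its reverse complement.
Mrc1, chr2:14229164-14229413: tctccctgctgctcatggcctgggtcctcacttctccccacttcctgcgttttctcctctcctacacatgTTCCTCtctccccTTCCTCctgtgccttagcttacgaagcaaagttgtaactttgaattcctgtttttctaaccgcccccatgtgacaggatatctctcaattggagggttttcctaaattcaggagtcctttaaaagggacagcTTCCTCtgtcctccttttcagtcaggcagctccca
Cd163, chr6:124304401-124304650: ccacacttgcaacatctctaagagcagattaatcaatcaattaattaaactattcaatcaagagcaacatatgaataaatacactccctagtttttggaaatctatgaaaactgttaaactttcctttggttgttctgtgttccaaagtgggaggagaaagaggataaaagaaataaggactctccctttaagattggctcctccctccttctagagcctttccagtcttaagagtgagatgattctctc
Clec12a, chr6:129349994-129350243: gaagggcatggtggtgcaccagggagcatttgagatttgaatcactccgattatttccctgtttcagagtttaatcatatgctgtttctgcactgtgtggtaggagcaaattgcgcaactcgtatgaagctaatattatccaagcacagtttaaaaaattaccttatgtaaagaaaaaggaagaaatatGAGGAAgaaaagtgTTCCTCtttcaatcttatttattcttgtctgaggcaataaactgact

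Mrc1 held 3 matches, starting 180, 167 and 35 bases before the start, all on the reverse strand. Clec12a held 2, at 61 and 47 bases, one on each strand, and Cd163 held none in this window. The Clec12a window belongs to a RefSeq start inside the gene span of the annotation, which begins at 129342691. A match of letters is not a bound site, and the counts give no measure of binding. A link between these matches and the ratios between the libraries was not tested.

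Dab2 encodes an adaptor that couples receptors such as megalin to clathrin and marks many tissue macrophages (chromosome 15, 6299788 to 6440712, forward strand). It had 3703 and 2940 counts, or 158 and 71.5 CPM, a ratio of 0.451 (0.430 to 0.474). Lyve1, a hyaluronan receptor of perivascular macrophages and of lymphatic endothelium (chromosome 7, 110850607 to 110863239, reverse strand), had 1218 and 1617 counts. At 52.1 and 39.3 CPM the ratio was 0.754 (0.700 to 0.813), above the ratios of the other receptors named so far. The 8 genes of lymphatic endothelium read beside it summed to 6.59 and 3.91 CPM. Flt4, Ccl21a, Mmrn1 and Tbx1 had 0 counts in both libraries. Most counts of the list came from Prox1, with 144 and 137, and Pdpn had 4 and 20.

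Folr2, a folate receptor of tissue-resident macrophages (chromosome 7, 101839988 to 101857194, reverse strand), was the lowest member by far, with 43 and 110 counts, or 1.84 and 2.67 CPM. Its ratio of 1.45 had the widest interval of the 10 (1.01 to 2.12). The annotation places an antisense gene, Gm10602, across it. Of the 1546 bases covered by Folr2 exons, 975 (63.1%) are also exon of Gm10602 on the opposite strand, and in the longest Folr2 transcript they are 794 of 1204 bases. Gm10602 itself had 19 and 7 counts. HTSeq's default mode counts a read that overlaps exons of more than 1 gene for none of them unless strand separates them. Whether strand was used is not given in the sources used here, so the Folr2 level is uncertain, and the part of the antisense overlap in the low count was not tested. Among the other members, F13a1 shared 74 of 6739 exon bases and Dab2 211 of 7342 with another gene, and the remaining 7 shared none. The neighbouring paralog Folr1, a folate receptor of choroid plexus epithelium, had 5 and 229 counts.

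Both secreted products were abundant but differed between the libraries to unequal extents. F13a1 encodes the A chain of coagulation factor XIII, which cross-links fibrin, and is made by monocytes as well as by resident macrophages (chromosome 13, 36867178 to 37050244, reverse strand). With 5264 counts it was the most abundant member of library 1 by CPM, and it had 2661 counts in library 2. The levels were 225 and 64.7 CPM, a ratio of 0.287 (0.274 to 0.301). Pf4 (chromosome 5, 90772435 to 90773383, forward strand) had 1866 and 2655 counts, or 79.8 and 64.5 CPM, a ratio of 0.809 (0.762 to 0.858).

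Platelets also hold Pf4 transcript, so the platelet and megakaryocyte genes were read beside it. Ppbp, the platelet chemokine gene 2372 bases from Pf4, had 4 counts in each library, and the integrin gene Itga2b had 2 and 20. Gp6, a platelet collagen receptor gene, had 0 counts in both libraries. Of the 10 genes in that list, 4 had at least 10 counts in both libraries, led by Gp9 (1019 and 2492 counts) and Itgb3 (1671 and 937 counts). The list summed to 117 CPM in library 1 and 85.7 CPM in library 2.

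The enzyme and the membrane proteins of less settled function made up the rest. Cbr2 (chromosome 11, 120729489 to 120732114, reverse strand) had 1556 and 2336 counts, or 66.5 and 56.8 CPM, a ratio of 0.853 (0.800 to 0.910). Ms4a7, a tetraspanning protein of the MS4A cluster that separates border macrophages from microglia (chromosome 19, 11321039 to 11336146, reverse strand), had 1108 and 2426 counts. At 47.4 and 59.0 CPM its ratio was 1.24 (1.16 to 1.34). Other MS4A genes lay on both sides of 1. The ratio was 1.34 for Ms4a4a, which lies 39377 bases away with 927 and 2183 counts, 1.31 for Ms4a6c, 1.47 for Ms4a6b and 1.24 for Ms4a4c. It was 0.922 (0.894 to 0.952) for Ms4a6d, the most abundant of them with 6234 and 10117 counts, and 0.517 (0.304 to 0.874) for Ms4a14, with 33 and 30 counts. Members of this cluster are similar in sequence, so some reads could match several of them. How such reads were counted is not given in the sources used here.

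Clec12a was the one member with a much higher level in library 2. It encodes an inhibitory C-type lectin receptor of myeloid cells, neutrophils and monocytes included (chromosome 6, 129342691 to 129365303, forward strand). Library 1 held 477 Clec12a counts and library 2 held 4712, or 20.4 and 115 CPM, a ratio of 5.61 (5.11 to 6.18), and it went from 2.29% to 21.8% of the counts of the 10 genes. It ranked ninth per length in library 1 and behind only Pf4 and Cbr2 in library 2. The neutrophil genes were 13.5 times as high in library 2, with all 14 at 10 counts or more in both libraries, and the sum of the 10 monocyte genes was 4.27 times as high. That sum was carried by Chil3 (10630 and 119347 counts) and Hp (3258 and 36907 counts), and the median log2 ratio of the monocyte list was 0.03. The sort had excluded Ly6G+ cells, yet Ly6g, which encodes the neutrophil marker of that gate, had 360 and 8662 counts, or 15.4 and 211 CPM. Ly6c2 was over 2-fold higher too, Nr4a1, Ace and Itgal were over 2-fold lower, and Ccr2 had 65.1 and 76.3 CPM. The part of neutrophil or monocyte RNA in the Clec12a difference was not tested. Without Clec12a, the other 9 members had a log2 ratio of −1.08 in place of −0.76.

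**Figure D2:**
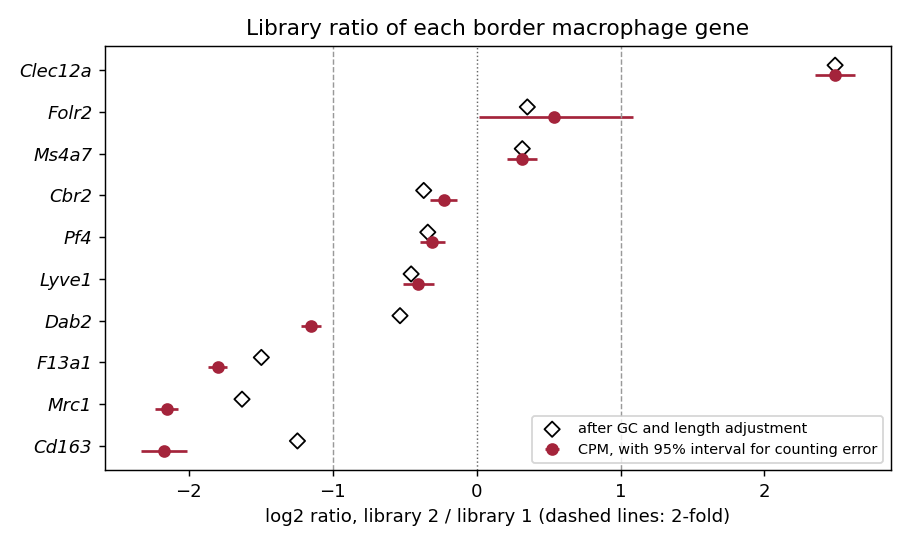
Ratio of library 2 to library 1 for each member on a log2 scale. Filled points are CPM ratios with 95% exact intervals for counting error, open diamonds are the ratios after subtracting the median of all counted genes of similar GC content and length, and dashed lines mark 2-fold. Cd163, Mrc1 and F13a1 stay beyond 2-fold lower in both forms and Clec12a beyond 2-fold higher, whereas Dab2 moves from −1.15 to −0.53.

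The members over 2-fold lower in library 2 were among those with long transcripts, and length moved with the ratio over the whole table. Genes whose longest transcript was over 5000 bases had a median log2 ratio of −1.005 (2632 genes), and 50.3% of them were over 2-fold lower in library 2. The median was −0.69 for 1857 genes of 4000 to 5000 bases, −0.32 for 2548 genes of 3000 to 4000 bases, 0.03 for 2787 genes of 2000 to 3000 bases and 0.15 for 2405 genes of 1000 to 2000 bases. It was lower again, at −0.06, for 1210 genes of up to 1000 bases, the class of Pf4. Mrc1 (5374 bases), Dab2 (4663), Cd163 (4443) and F13a1 (3952) are the 4 members with the longest transcripts, and the 4 that were over 2-fold lower. Pf4 (588 bases), Cbr2 (1110), Folr2 (1204) and Lyve1 (2893) are the 4 shortest, and were within 2-fold. Ms4a7 (3607) and Clec12a (3233) lay between them in length. With Folr2 (log2 ratio 0.54) they were the members above the median of their length class, at log2 ratios of 0.32 and 2.49. Across the 10 members, Spearman's rho between length and log2 ratio was −0.64, and across all 13439 counted genes −0.38. The points share the same 2 libraries and are not replicates.

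**Figure D3:**
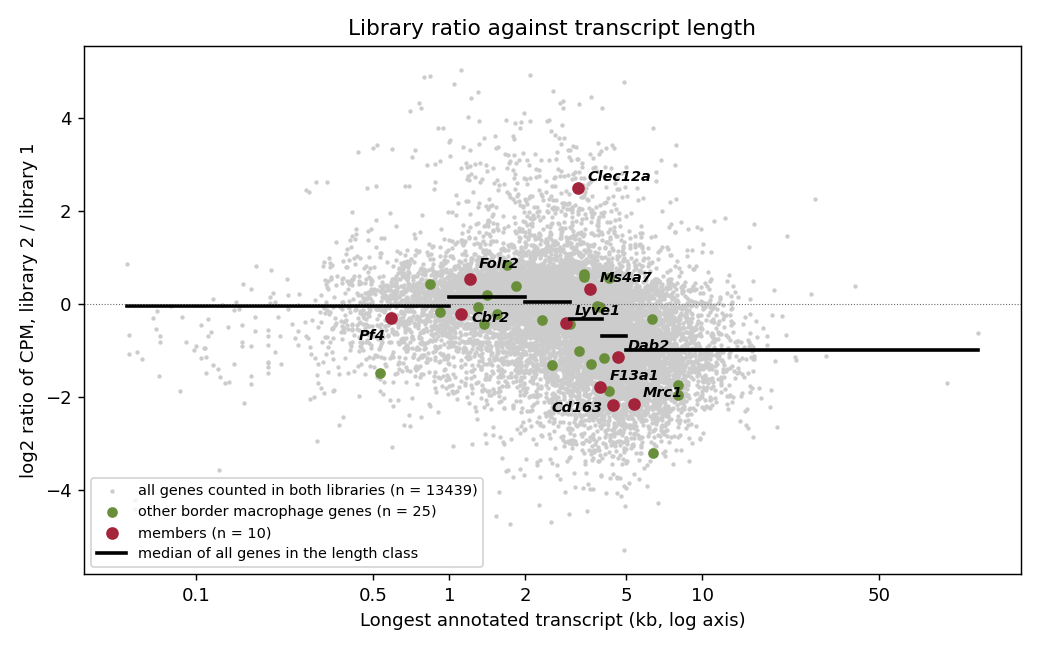
Log2 ratio of CPM between library 2 and library 1 against the length of the longest annotated transcript (log axis, in kb) for the 13439 genes counted in both libraries (grey), 25 other border macrophage genes (green) and the 10 members (red, named). Black bars give the median of all counted genes in each length class, which falls to −1.005 above 5 kb, and Mrc1, Cd163 and F13a1 lie below the bar of their class while Clec12a lies above it.

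The log2 ratio of each gene was therefore also read relative to the median of counted genes alike in length and in GC content. Spearman's rho with length was then 0.03 across all counted genes and −0.66 across the 10 members. The adjusted log2 ratio was −1.63 for Mrc1, −1.50 for F13a1 and −1.24 for Cd163, which thus lay below most genes of their own length and GC content. Dab2 fell within 2-fold, at −0.53. Clec12a was at 2.49. The remaining 5 lay between −0.45 for Lyve1 and 0.35 for Folr2. On this scale 3 of the 10 members were over 2-fold lower, where 12.7% of all counted genes were, and 1 was over 2-fold higher, where 9.7% were.

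A further 25 genes of border-associated and other tissue-resident macrophages, outside the 10, were read in the same way. All 25 had at least 10 counts in both libraries, and they summed to 3265 CPM in library 1 and 2428 CPM in library 2, a ratio of 0.744 (0.737 to 0.751). Per length the highest were Hpgd, which degrades prostaglandins (520 and 756 TPM), Wfdc17, a small secreted protein (964 and 280 TPM), Gas6, a ligand of the receptor kinase Axl (532 and 174 TPM), the iron exporter Slc40a1 (156 and 121 TPM) and Tgfbi, an extracellular matrix protein (161 and 97.1 TPM). Several of these are also expressed by microglia, and they are not evidence of border macrophages by themselves.

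In this wider set 9 of the 25 were over 2-fold lower in library 2, beside 25.9% of all counted genes, and none was higher by that much, beside 5.74%. Siglec1, the sialic acid receptor CD169, differed most, with 958 counts in library 1 and 182 in library 2, a log2 ratio of −3.21. It was followed by the scavenger receptor gene Stab1 (10644 and 4777 counts, −1.97) and by Axl (1935 and 930 counts, −1.87). In the other direction the largest ratios were those of Hpgd (log2 ratio 0.83), the lipid scavenger receptor Cd36 (0.64) and the C-type lectin Cd209g (0.57). After the GC and length adjustment, 5 of the 25 were over 2-fold lower (Siglec1, Cd38, Nrp1, Wfdc17 and Gas6) and 1, Igfbp4, was over 2-fold higher, beside 12.7% and 9.7% of all counted genes. Stab1, with a transcript of 7999 bases, was then at 0.01, and Siglec1 at −1.48. Wfdc17, with a transcript of 533 bases, was at −1.49 before and −1.53 after it. Before the adjustment the median log2 ratio was −0.36 for the 10 members and −0.34 for these 25 genes, near the −0.26 of all counted genes. It was 0.30 for the 12 microglia genes. The median adjusted log2 ratio was −0.41 for the 10 members, −0.23 for these 25 genes and 0.41 for the 12 microglia genes, beside 0.00 for all counted genes.

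**Figure D4:**
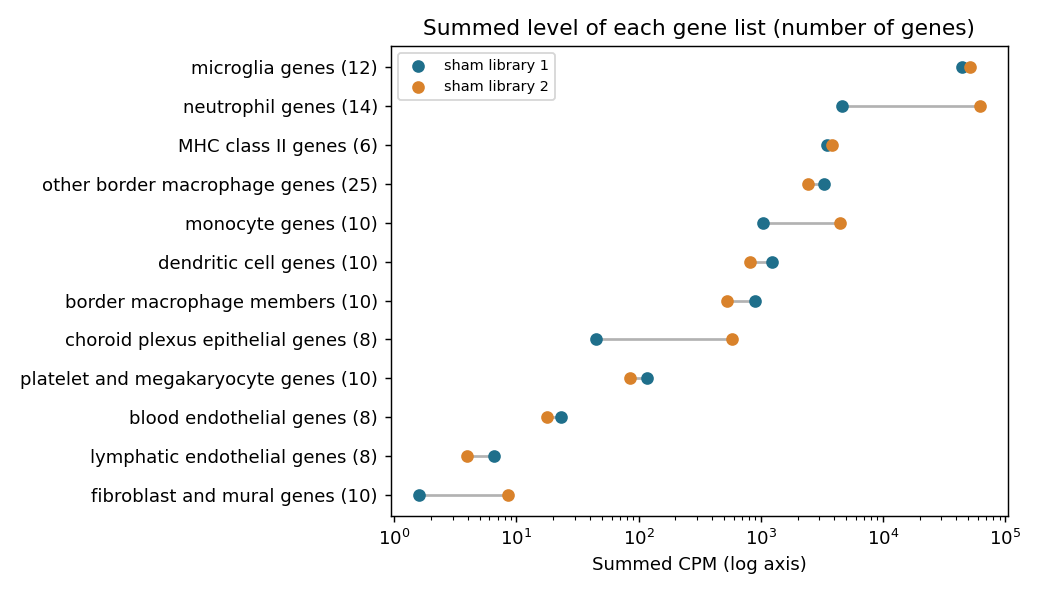
Summed CPM of each gene list in sham library 1 and sham library 2 on a log axis, with the number of genes in parentheses. The border macrophage lists are lower in library 2, with ratios of 0.592 and 0.744. So are the lymphatic endothelial (0.594), dendritic cell (0.651), platelet and megakaryocyte (0.731) and blood endothelial lists (0.761). Microglia genes are close in both (44034 and 51869 CPM). The neutrophil, choroid plexus epithelial and monocyte sums are higher in library 2. The monocyte sum was carried by Chil3 and Hp, and the median log2 ratio of that list was 0.03.

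Other cells of the vessel wall and membranes, which border the same spaces, left few counts. The 8 genes of blood endothelium summed to 23.2 and 17.6 CPM, mostly from Pecam1, which myeloid cells also express, while Cldn5, a tight junction gene, had 1 count in each library and Tek had 0. The 10 genes of fibroblasts and mural cells summed to 1.58 and 8.56 CPM, from 37 and 352 counts, of which Acta2 had 21 and 316. Col1a1 had 0 and 4 counts, and Lum and Pdgfra had 0 counts in both libraries. The summed border macrophage genes were thus 38.4-fold above the endothelial genes in library 1 and 29.8-fold above them in library 2, as sums of counts that are not corrected for length.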

How the data were processed

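Bulk RNA-seq of sorted microglia was analysed in 2 sham libraries, grouped by the sample titles. Per the study's methods, cDNA was made with the SMART-Seq HT Kit and libraries with Nextera XT. The submitters' processing notes name HISAT2, HTSeq and GRCm38, and the authors deposited raw, unnormalized counts by Ensembl identifier. Versions, annotation release and strand setting are not given in the sources used here. Symbols, transcript lengths and GC content came from GENCODE M21 (GRCm38), where 53706 of 53801 identifiers matched. File starts count from 0 and positions are given from 1.

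CPM used all counts on genes (23381026 and 41142609), and TPM used the longest transcript. Where a gene reached 10 counts in each library, the libraries were compared by a fold of 2, a size rule and not a test. Ratios have 95% exact binomial intervals and levels 95% Wilson intervals, for counting error only. The log2 ratio was also adjusted by subtracting the median of its bin of GC content and length (10 bins each, GC content alone under 20 genes). edgeR 4.0.16 (TMM, intercept only) gave a common dispersion as the spread. It and the adjustment were tested on simulated data. The members and all 12 gene lists were chosen with earlier results of these data known. Named genes were the 10 members, of the 25 further macrophage genes the 5 highest by mean TPM and the 3 largest ratios in each direction, and of each other list its most abundant gene and set defining genes. Other genes named from these lists, such as the Ms4a neighbours, Gp9, Acta2, Cd209a and those counted past 2-fold, were named after their values were seen. Alternatives were other scalings (TMM, DESeq2 1.42.0 size factors, totals without mitochondrial or neutrophil genes), other count minimums, lists without their most abundant gene, exon-union lengths and leaving out a library. Those without Clec12a, scaled by microglia genes and for the 25 genes were added after seeing the data. Other tools were R 4.3.3, Python 3.11.15, numpy 2.4.6, pandas 2.3.3, scipy 1.17.1 and matplotlib 3.10.9.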

Additional observations from a re-analysis of the deposited data

How the results depend on the processing

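No paired analysis was possible because 1 group of 2 libraries leaves nothing to pair. With one library left out, the summed level was 526 to 889.7 CPM, the ratio to microglia genes 1.01 to 2.02 per 100 counts and the median TPM of the members 28.6 to 57.6. With 2 libraries such values always stay within 1 SD of the mean and say nothing about stability. The log2 ratio of the sum between the libraries kept its sign in each setting run. It was −0.76, and −0.53 with TMM, −0.48 with DESeq2 size factors, −0.67 with totals without the neutrophil genes, −0.53 without F13a1 and −1.08 without Clec12a. TMM moved every log2 ratio by 0.23 and DESeq2 size factors by 0.27, and with either 3 of the 10 members, without Dab2 (−0.92 and −0.87), were over 2-fold lower. The median log2 ratio of all counted genes was −0.26 for CPM ratios and −0.03 after TMM scaling. The count of members over 2-fold lower was 3 or 4 and that over 2-fold higher was 1 in each setting. Of the 25 further genes, 5 in place of 9 were lower and 1 in place of 0 higher after the GC and length adjustment. The biological coefficient of variation was 0.479, and 0.550 without the filter on low counts. The causes were not tested. Folr2, with 43 and 110 counts, is the member with the fewest counts, and the part of depth and of its exon overlap with Gm10602 in this was not tested.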

Other observations

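MHC class II genes, which mark a subset of border macrophages as well as dendritic cells and B cells, were read as a further list. The 6 genes summed to 3468 CPM in library 1 and 3832 CPM in library 2, a ratio of 1.11 (1.10 to 1.11). None of the 6 differed by over 2-fold between the libraries. H2-Aa had 333 and 565 CPM, H2-Ab1 had 911 and 1155 CPM, and the invariant chain gene Cd74 had 1334 and 953 CPM. The 10 dendritic cell genes summed to 1242 and 808 CPM, mostly from Irf8 (1000 and 590 CPM). Cd209a had 52.4 and 49.1 CPM and Flt3 had 4.15 and 4.81 CPM. Itgax, which encodes the CD11c used to exclude cells, had 14.2 and 3.94 CPM. Xcr1 had only 1.63 and 1.26 CPM, and Clec9a 0.385 and 0.243 CPM. Whether these transcripts came from microglia or from other cells was not tested.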
